A study of Mus musculus with 207 samples.

Results

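Single islet cells that the labels call beta cells were split by how much of their transcriptome was insulin. The insulin share of a cell was its Ins1 and Ins2 TPM added and given as a percent of all TPM. TPM values are transcript abundances scaled for gene length and to a fixed total per cell. Cells at 60% or above were taken as insulin-rich and cells below 45% as insulin-poor, within each age. This gave 13 insulin-rich and 10 insulin-poor cells of 69 old cells and 34 insulin-rich and 21 insulin-poor cells of 138 young cells, or 78 of the 207 cells in all. The other 46 old and 83 young cells lay between the cutoffs. Insulin-rich cells were 18.8% of old cells (95% Clopper-Pearson interval 10.4 to 30.1%) and 24.6% of young cells (17.7 to 32.7%), and insulin-poor cells were 14.5% (7.17 to 25.0%) and 15.2% (9.67 to 22.3%), with intervals that cover counting error only.

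The cells came from pancreatic islets of male mice aged 26 months (group Old) or 3 months (group Young), with no treatment, strain or genotype given in the labels. Each cell was caught on a microfluidic chip, and its RNA was copied, amplified and sequenced. The labels tie no cell to an animal, so each age is 1 sample, cells are not replicates, and no test, p-value or standard error is given. Every difference below is a description of these cells, with the SD between cells as its spread.

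Insulin is made as preproinsulin, which is threaded into the endoplasmic reticulum (ER), folded there with the help of chaperones and disulfide-forming enzymes, and passed through the Golgi into dense granules. In the granule it is cut to insulin and stored with chromogranins, amylin and the cutting enzymes until glucose metabolism and calcium entry trigger release. Mice carry a pair of insulin genes, Ins2, the counterpart of the human gene, and Ins1, a copy that arose in rodents and lacks an intron. Beta cells are known to differ from one another in insulin content, maturity and stress.

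Insulin transcripts chose the classes, so their values are a description only. The share ran from 60.1 to 69.9% in insulin-rich and from 25.8 to 44.8% in insulin-poor old cells, and from 60.0 to 78.7% in insulin-rich and from 15.7 to 45.0% in insulin-poor young cells, where both ends belong to cells with macrophage transcripts described below (30.4 to 43.5% without them). Cells just inside and just outside the upper cutoff had 60.07 and 59.33% in old and 60.02 and 59.78% in young cells. At the lower cutoff, the nearest cells had 44.79 and 45.48% in old and 44.95 and 45.10% in young cells. There was no gap in the shares at either cutoff, so the classes are the ends of a range of shares. Whether they hold distinct kinds of cell was not tested.

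**Figure D1:**
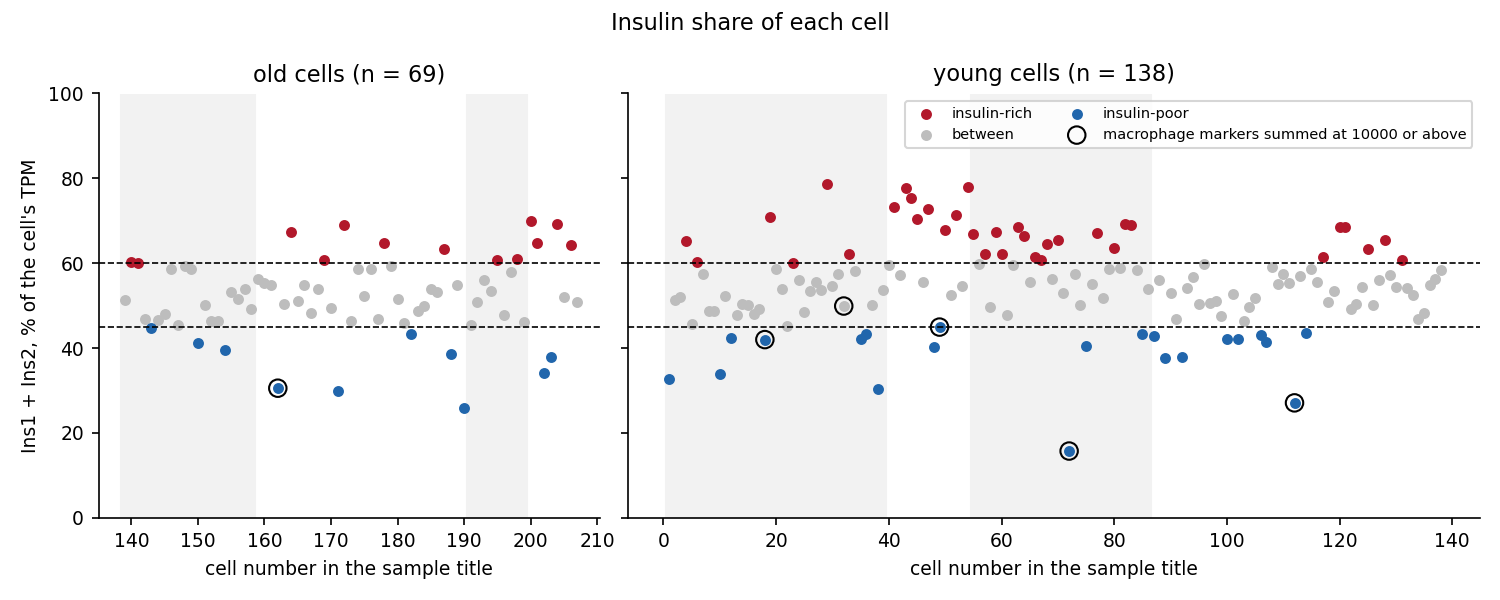
Insulin share of each cell (Ins1 and Ins2 as a percent of the cell's TPM) against the cell number in the sample title, for old cells (left) and young cells (right). Dashed lines mark 45% and 60%, grey and white bands mark runs of cell numbers, and black rings mark the 6 cells with macrophage markers summed at 10000 or above, 5 of which are insulin-poor.

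Both insulin genes were lower in insulin-poor cells, Ins1 by the larger ratio. Ins1 was at 53857.5 ± 12752.5 TPM in insulin-rich and 24733 ± 8599 TPM in insulin-poor old cells, and at 62154.5 ± 13958.9 TPM in insulin-rich and 30378 ± 12677 TPM in insulin-poor young cells. Ins2 was at 589018 ± 35656 TPM in insulin-rich and 341158 ± 55869 TPM in insulin-poor old cells, and at 610632 ± 53441 TPM in insulin-rich and 354904 ± 65576 TPM in insulin-poor young cells. The median ratio of Ins2 to Ins1 was 11.8 in insulin-rich and 15.1 in insulin-poor old cells, and 9.61 in insulin-rich and 12.3 in insulin-poor young cells. Cells of the classes overlapped widely in this ratio, from 7.28 to 16.0 in insulin-rich and from 10.5 to 19.7 in insulin-poor old cells, and from 5.96 to 17.4 in insulin-rich and from 6.48 to 37.9 in insulin-poor young cells. Over all cells of an age, the rank correlation of the ratio with the share was -0.16 in old (n = 69) and -0.18 in young cells (n = 138). The genes are close copies whose reads can be shared, so each is less certain than the sum. Ins1 lies on chromosome 19, 52264297 to 52265015, and Ins2 on chromosome 7, 142678656 to 142679726 (GRCm38.p6).

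The promoter of Ins1 is shown because its gene defines the classes. The 250 bases before the RefSeq start (GRCm38.p6, chr19:52264047-52264296, plus strand) read 5′ to 3′ as below, with the E box CATCTG and the A box core TAAT (ATTA on the other strand) in capitals. These are the kinds of element that the factors Neurod1 and Pdx1 are known to bind in insulin promoters.
Ins1: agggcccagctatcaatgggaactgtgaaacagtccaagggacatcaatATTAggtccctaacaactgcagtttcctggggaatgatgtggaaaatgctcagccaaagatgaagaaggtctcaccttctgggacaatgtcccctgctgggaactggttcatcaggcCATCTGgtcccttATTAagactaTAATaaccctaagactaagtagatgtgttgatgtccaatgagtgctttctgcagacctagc
It held 1 E box and 3 A box cores. CATCTG was found in 14.5% and TAAT in 55.3% of 27025 promoters of the same length on either strand, so neither is rare.

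The number of detected genes overlapped between the classes but was not even over them. With insulin left out, the median number of detected genes (1 TPM or above) was 4798 in insulin-rich and 4547.5 in insulin-poor old cells, and 4580.5 in insulin-rich and 4873 in insulin-poor young cells. Its rank correlation with the share was -0.06 in old (n = 69) and -0.23 in young cells (n = 138). Read depth is unknown. Along the cell numbers, 4 measures shifted at a few places and gave 8 runs of neighbouring cells. The measures were detected genes, mitochondrial coding and noncoding RNA, and the sum of the nuclear noncoding RNAs Malat1, Neat1, Meg3, Snhg11 and Kcnq1ot1. Of the 34 insulin-rich young cells, 22 came from cells 40 to 86, against 5 of the 21 insulin-poor ones. Cells 40 to 54 held 8 of these insulin-rich and 2 of these insulin-poor cells, and their median of detected genes was low, 3082.5 in insulin-rich and 3354.5 in insulin-poor cells. A run had at least 5 cells of each class in old cells 159 to 190 (5 and 5) and in young cells 1 to 39 (6 insulin-rich, 7 insulin-poor) and 87 to 138 (6 and 9), and values within these runs are given for the main lists and genes. The part of the runs in a pooled difference was not tested.

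The insulin-poor class held a small set of cells loaded with macrophage transcripts. A list of 13 markers of macrophages and leukocytes was summed per cell, and 6 of the 207 cells had sums of 16511 to 51488 TPM, against at most 1050.1 TPM in any other cell. Of these, 5 were insulin-poor (old cell 162 and young cells 18, 49, 72 and 112), 1 lay between the cutoffs (young cell 32) and 0 were among the 47 insulin-rich cells, where a count of 0 allows a share of up to 6.38%. All 6 also held Ins1, Ins2 and Iapp, so they carry transcripts of both kinds. They held Cd74, the invariant chain of antigen presentation, at 286 to 30984 TPM, against at most 33.2 TPM in other cells. Lyz2, the lysozyme of myeloid cells, was at 902 to 14549 TPM in them, against at most 191 TPM elsewhere. Tyrobp, a signalling adaptor of myeloid cells, was at 1734 to 11803 TPM, against at most 36.0 TPM elsewhere. The T cell marker Cd3e was at 0 in all 6, and the B cell marker Cd79a was at 13.9 TPM in 1 and at 0 in the others. The cutoff of 10000 was chosen after the data had been seen, in a gap that no cell fell into. No doublet caller was run, and whether these were pairs of cells or single cells with taken-up RNA was not tested. Of the markers of acinar, endothelial, red blood and epsilon cells, 0 were measured at either age, and the stellate marker Sparc came from 1 insulin-poor cell at each age. The cells with macrophage transcripts are called marker-carrying cells here, and values without them are given for the main lists and genes.

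**Figure D2:**
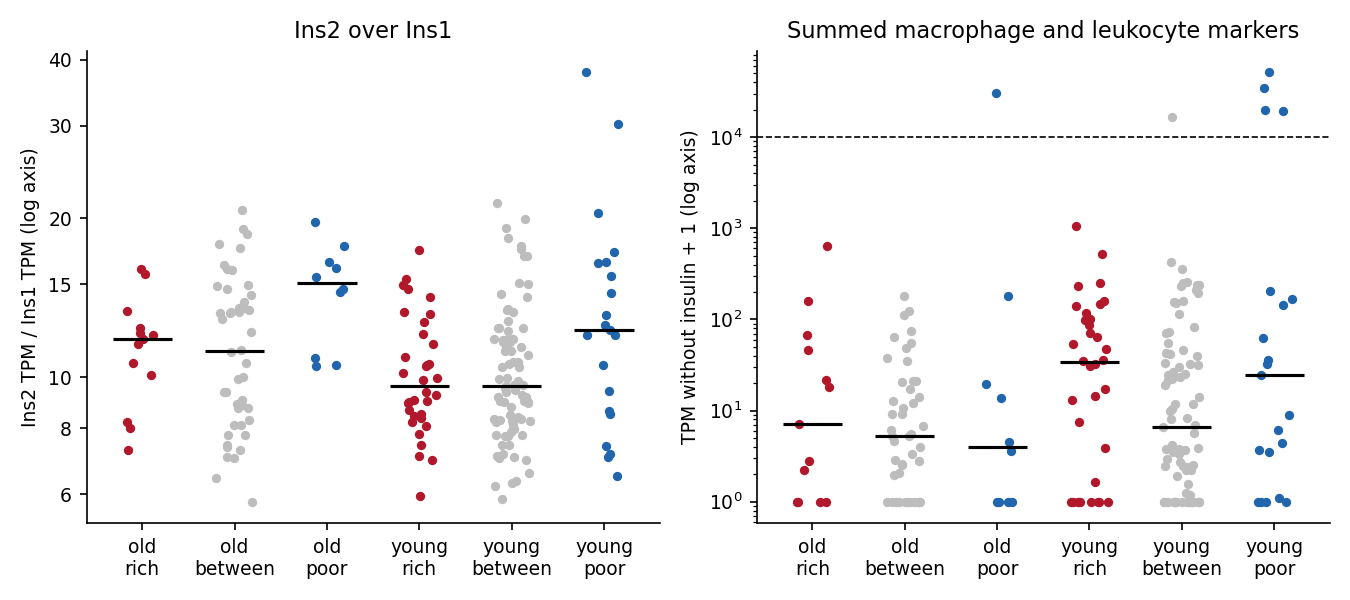
Ratio of Ins2 to Ins1 TPM (left, log axis) and summed TPM of 13 macrophage and leukocyte markers plus 1 after insulin was left out (right, log axis), by age and class. Points are cells, bars are medians and the dashed line marks the sum of 10000: 1 old and 4 young insulin-poor cells and 1 young cell between the cutoffs lie above it, and the insulin ratio overlaps between all classes.

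For all other genes, Ins1 and Ins2 were dropped and each cell was rescaled to a total of 1000000, since a cell with more insulin has less room for everything else. These values, written as TPM below, are shares of the non-insulin transcripts and not molecules per cell. The difference of a gene is log2 of the mean in insulin-rich cells plus 1 over the mean in insulin-poor cells plus 1, so a positive value is higher in insulin-rich cells. Values in parentheses after levels, list medians and values of genes given with no unit are such log2 ratios, old before young and runs in the order of old cells 159 to 190, young cells 1 to 39 and young cells 87 to 138. Among 7290 genes with a mean of 10 TPM or above in either class of old cells, 37.3% were higher and 39.9% lower in insulin-rich cells by 1.5-fold or more. In young cells (7868 genes) 32.4% were higher and 35.9% lower by that size. The medians over all these genes were -0.02 in old and -0.05 in young cells. On the TPM as deposited the median of all measured genes was -1.15 in old and -1.12 in young cells, and of the genes past 1.5-fold 21.2% in old and 12.2% in young cells were the higher ones, against 48.4% and 47.4% after rescaling. On that scale 2 of 22 list medians were above 0 in old and 0 in young cells, against 10 and 14 after rescaling, so every direction of a list below is relative to the other non-insulin transcripts. With the difference of mean log2 in place of the ratio of means, the higher ones were 46.6% in old and 26.7% in young cells, where the median of all genes was -0.27. Counts in gene lists are read against these backgrounds. Of the genes measured at both ages, 798 were higher at both, which is 37.3% of those higher in old cells and 43.6% of those higher in young cells. Over the same 5944 genes, 36.0% were higher in old and 30.8% in young cells. Likewise 943 were lower at both, 42.1% of those lower in old and 49.7% of those lower in young cells, where 37.7% of the 5944 were lower in old and 31.9% in young cells. Without the marker-carrying cells, 38.3% were higher and 38.4% lower in old and 33.6% higher and 34.7% lower in young cells. Among genes with a mean of 100 TPM or above, also without them, 31.5% were higher and 35.4% lower in old cells and 25.3% higher and 29% lower in young cells.

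**Figure D3:**
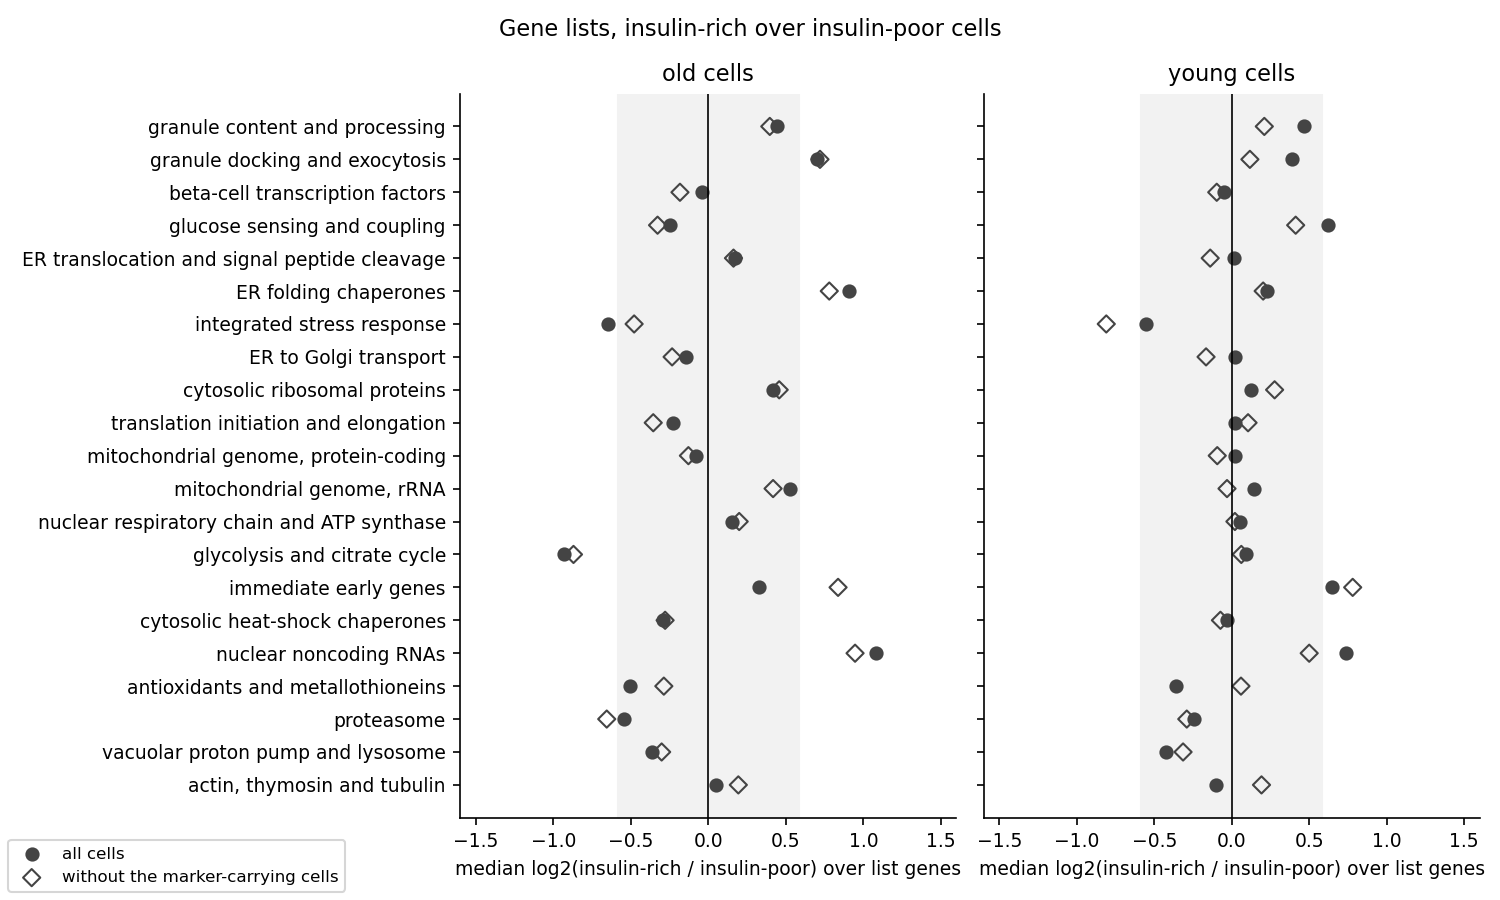
Median log2 ratio of insulin-rich over insulin-poor cells over the measured genes of 21 gene lists, in old cells (left) and young cells (right), with all cells (filled circles) and without the marker-carrying cells (open diamonds). The grey band spans differences under 1.5-fold. ER folding chaperones (0.91) and nuclear noncoding RNAs (1.08) lie highest and glycolysis (-0.93) lowest in old cells, and a further list of disallowed and immature genes with 4 and 5 measured genes is not drawn.

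Genes of the insulin granule were the first group examined. Of 20 measured granule content and processing genes in old cells, 7 were higher and 2 lower in insulin-rich cells by 1.5-fold or more (background 37.3% and 39.9%), with a list median of 0.44. In young cells 6 of 19 were higher and 0 lower (background 32.4% and 35.9%), with a median of 0.47, or 0.21 without the marker-carrying cells. The shares higher were close to the background. The count of lower genes was small at both ages, and most of the abundant granule genes differed little. Iapp, which encodes amylin, was at 153313 ± 58071 TPM in insulin-rich and 138769 ± 45250.4 TPM in insulin-poor old cells (0.14) and at 133921 ± 51996 and 132011 ± 78547 TPM in insulin-rich and insulin-poor young cells (0.02, and -0.17 without the marker-carrying cells). The prohormone convertase gene Pcsk2 differed by 0.44 in old and 0.22 in young cells and the carboxypeptidase gene Cpe by 0.13 and 0.36.

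Chga, which encodes chromogranin A, a protein that packs hormone into dense granules, had higher medians in insulin-rich cells at both ages. In old cells it ran from 1511 to 9130.5 TPM with a median of 3369 TPM and a mean of 3989 ± 2044 TPM in insulin-rich cells, and from 231 to 4807 TPM with a median of 1055 TPM and a mean of 1848 ± 1536 TPM in insulin-poor cells. In young cells it ran from 1603 to 7986 TPM with a median of 3209.5 TPM and a mean of 3533 ± 1699 TPM in insulin-rich cells, and from 276 to 5436 TPM with a median of 1889 TPM and a mean of 1936 ± 1446 TPM in insulin-poor cells. Classes overlapped at both ages, and the lowest cells were insulin-poor. The log2 ratio was 1.11 in old and 0.87 in young cells, and -0.03 in young cells on the TPM as deposited. It was 1.04 and 0.89 without the marker-carrying cells, 2.05 within old cells 159 to 190, 0.78 within young cells 1 to 39 and 0.48 within young cells 87 to 138. Pcsk1n, which encodes proSAAS, a granule peptide that inhibits Pcsk1, had medians of 40.2 TPM in insulin-rich and 11.1 TPM in insulin-poor old cells, and of 57.9 and 13.4 TPM in insulin-rich and insulin-poor young cells. Its log2 ratios were 2.83 and 1.59, but within young cells 1 to 39 it was -0.78. Resp18, a granule protein gene, was at 0.39 in old and 0.69 in young cells.

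The promoter of Chga is shown because Chga is an abundant granule gene described above. Its 250 bases before the RefSeq start (GRCm38.p6, chr12:102554691-102554940, plus strand) hold the core of a cyclic AMP response element, TGACGT, in capitals.
Chga: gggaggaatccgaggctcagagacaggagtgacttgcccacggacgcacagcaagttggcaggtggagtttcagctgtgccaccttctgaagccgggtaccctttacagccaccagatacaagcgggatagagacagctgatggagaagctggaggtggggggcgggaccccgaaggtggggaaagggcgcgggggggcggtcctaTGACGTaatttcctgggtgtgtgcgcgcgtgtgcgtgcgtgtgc
TGACGT, read on either strand, was in 5 of 18 promoters of the granule list (Chga, Chgb, Pcsk1, Scg2 and Scg5) and in 6.56% of all promoters of this length. A match is a description of these letters only.

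Genes that dock and fuse granules were higher more often in old cells, 10 of 18 against 4 lower (background 37.3% and 39.9%). The list median was 0.70. That median was -0.18 with cutoffs of 65% and 40%, -0.28 on the TPM as deposited and -0.04 among genes with a mean of 100 TPM or above. In young cells 7 of 19 were higher and 4 lower (background 32.4% and 35.9%), so the share higher was close to the background. The young median was 0.39, and it came to 0.12 without the marker-carrying cells. Within the runs the list medians were 0.53, 0.34 and -0.15. Syt13, an atypical synaptotagmin of endocrine cells, was at 476 ± 375 TPM in insulin-rich and 165 ± 131 TPM in insulin-poor old cells (1.52), and at 352 ± 349 TPM in insulin-rich and 174 ± 226 TPM in insulin-poor young cells (1.01). Within young cells 87 to 138 its sign was the other way (-0.73). Rph3al, which encodes the Rab effector Noc2 needed for regulated secretion, was at 2.13 and 1.79, and above 0 in each of the runs (2.55, 0.65 and 2.37). Its levels were low, with a median of 5.65 TPM in insulin-rich and 0.925 TPM in insulin-poor old cells.

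ER folding chaperones were higher in insulin-rich old cells. There 11 of 20 were higher (55%) and 4 lower (20%) by that size, against a background of 37.3% and 39.9%. Their median was 0.91, and it was 0.78 without the marker-carrying cells and 0.68 within cells 159 to 190. In young cells 7 of 20 were higher (35%) and 0 lower (background 32.4% and 35.9%), so the share higher was close to the background. The young median was 0.23 and ranged from -0.56 to 0.72 over the alternatives. Hspa5, P4hb and Manf turned negative in young cells on the TPM as deposited (-0.19, -0.24 and -0.05). Within the runs the young medians were 0.24 (cells 1 to 39) and -0.10 (cells 87 to 138). The summed level of the 20 genes overlapped widely. Without the marker-carrying cells it had medians of 10443 TPM in insulin-rich and 8211 TPM in insulin-poor old cells, and of 9463 TPM in insulin-rich and 8388 TPM in insulin-poor young cells. Over all cells but the marker-carrying ones, its rank correlation with the insulin share was 0.03 in old (n = 68) and 0.07 in young cells (n = 133).

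Hspa5, the chief ER chaperone also called BiP, ran from 211 to 6071 TPM with a median of 1514 TPM and a mean of 1890.4 ± 1818 TPM in insulin-rich old cells, and from 19.2 to 1889.5 TPM with a median of 875 TPM and a mean of 966 ± 666 TPM in insulin-poor old cells. Young cells had 155 to 5349 TPM with a median of 1942 TPM and a mean of 2097 ± 1320.3 TPM in the insulin-rich class and 71.6 to 2741 TPM with a median of 1231 TPM and a mean of 1282 ± 809 TPM in the insulin-poor class. The highest cells were insulin-rich at both ages, while most other cells overlapped. Its log2 ratio was 0.97 in old and 0.71 in young cells, 0.59 within old cells 159 to 190, 0.46 within young cells 1 to 39 and -0.34 within young cells 87 to 138. Manf, an ER protein induced by unfolded proteins, was at 1.07 and 0.79, and Selenos, a selenoprotein of ER-associated degradation, at 1.17 and 1.02 in old and young cells. Both were above 0 in all 3 runs. P4hb, a protein disulfide isomerase, was at 0.94 and 0.64. Calr, the calcium-binding chaperone calreticulin, was at 782 ± 456 TPM in insulin-rich and 387 ± 277 TPM in insulin-poor old cells (1.01), but at 616 ± 526 and 649.8 ± 677 TPM in insulin-rich and insulin-poor young cells (-0.08). Ero1b, listed with the granule genes and the beta-cell form of the oxidase that drives disulfide bonds, was the other way round. It was at 861 ± 653 TPM in insulin-rich and 246 ± 170.4 TPM in insulin-poor young cells (1.80, and 1.15 and 0.96 within the runs), and at 0.12 in old cells. Whether these ages differ was not tested.

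The promoter of Hspa5 carries the ER stress response element, and is shown since this element is shared by the folding genes. In its 250 bases before the RefSeq start (GRCm38.p6, chr2:34771840-34772089, plus strand) the element is in capitals.
Hspa5: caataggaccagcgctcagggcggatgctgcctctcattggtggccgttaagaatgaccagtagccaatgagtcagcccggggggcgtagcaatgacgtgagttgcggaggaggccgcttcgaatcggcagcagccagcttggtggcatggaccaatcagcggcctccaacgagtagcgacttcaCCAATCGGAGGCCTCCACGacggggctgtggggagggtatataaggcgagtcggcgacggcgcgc
The element was searched as CCAAT and CCACG with 9 bases of any kind between them, on both strands. It was in 7 of 17 promoters of the folding list (Calr, Canx, Creld2, Dnajc3, Hsp90b1, Hspa5 and Pdia6), in that of Ero1b, and in 0.122% of all promoters of this length. Of these genes, Hsp90b1 differed by only 0.10 in old and 0.25 in young cells.

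Other stress and synthesis lists had no common direction. In old cells the median of ribosomal protein genes was above 0, as was that of the folding genes. Integrated stress response genes had 4 of 15 higher (26.7%) and 8 lower (53.3%) in insulin-rich old cells (median -0.64, background 37.3% and 39.9%). In young cells 5 of 15 were higher (33.3%) and 7 lower (46.7%), with a median of -0.55 (background 32.4% and 35.9%). Over the genes measured in the whole classes, the medians within runs were 0.08 (old cells 159 to 190), -1.57 (young cells 1 to 39) and 0.34 (young cells 87 to 138). Of 80 cytosolic ribosomal protein genes, 33 were higher (41.25%) and 2 lower (2.5%) in insulin-rich old cells, with a median of 0.42. The background was 37.3% and 39.9%, so the share higher was close to it and the share lower was below it. In young cells 14 were higher (17.5%) and 11 lower (13.75%), with a median of 0.13. Both shares were below the background (32.4% and 35.9%). Without the marker-carrying cells 29 were higher (36.25%) and 7 lower (8.75%), with a median of 0.28 (background 33.6% and 34.7%). Their summed level without those cells was 55550 ± 15226 TPM in insulin-rich and 44329 ± 15712 TPM in insulin-poor old cells, and 54381 ± 28132 TPM in insulin-rich and 43735 ± 13649 TPM in insulin-poor young cells. The rank correlation of this sum with the share was 0.30 in old (n = 68) and 0.14 in young cells (n = 133). By differences of mean log2 the young value of this list was -0.29, so its sign depends on the summary. The median of all young genes by that summary was -0.27, close to the value of the list. Many ribosomal protein genes have near-identical processed copies in the genome whose reads can be shared. The 13 protein-coding genes of the mitochondrial genome had 0 members past 1.5-fold in either direction at both ages, with medians of -0.08 and 0.02.

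Immediate early genes, many of them for transcription factors and switched on within minutes of a stimulus, of calcium entry or of dissociation, were higher in insulin-rich young cells. There 12 of 20 were higher (60%) and 2 lower (10%) by that size, against a background of 32.4% and 35.9%. Their median was 0.65, and it was -0.19 on the TPM as deposited. In old cells 9 of 19 were higher (47.4%) and 7 lower (36.8%), with a median of 0.33 (background 37.3% and 39.9%). Without the marker-carrying cells 12 were higher and 2 lower in young cells (0.78, background 33.6% and 34.7%). In old cells 10 of 18 were then higher and 6 lower (0.84, background 38.3% and 38.4%). Within runs the medians were 0.89 in old cells 159 to 190, and 0.19 and 0.70 in young cells 1 to 39 and 87 to 138. The summed level of the 27 listed genes without the marker-carrying cells had a median of 915 TPM in insulin-rich and 495 TPM in insulin-poor old cells, and of 4697 TPM in insulin-rich and 2099 TPM in insulin-poor young cells. Its rank correlation with the share was 0.24 in old (n = 68) and 0.30 in young cells (n = 133), over cells that share runs and a fixed total.

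**Figure D4:**
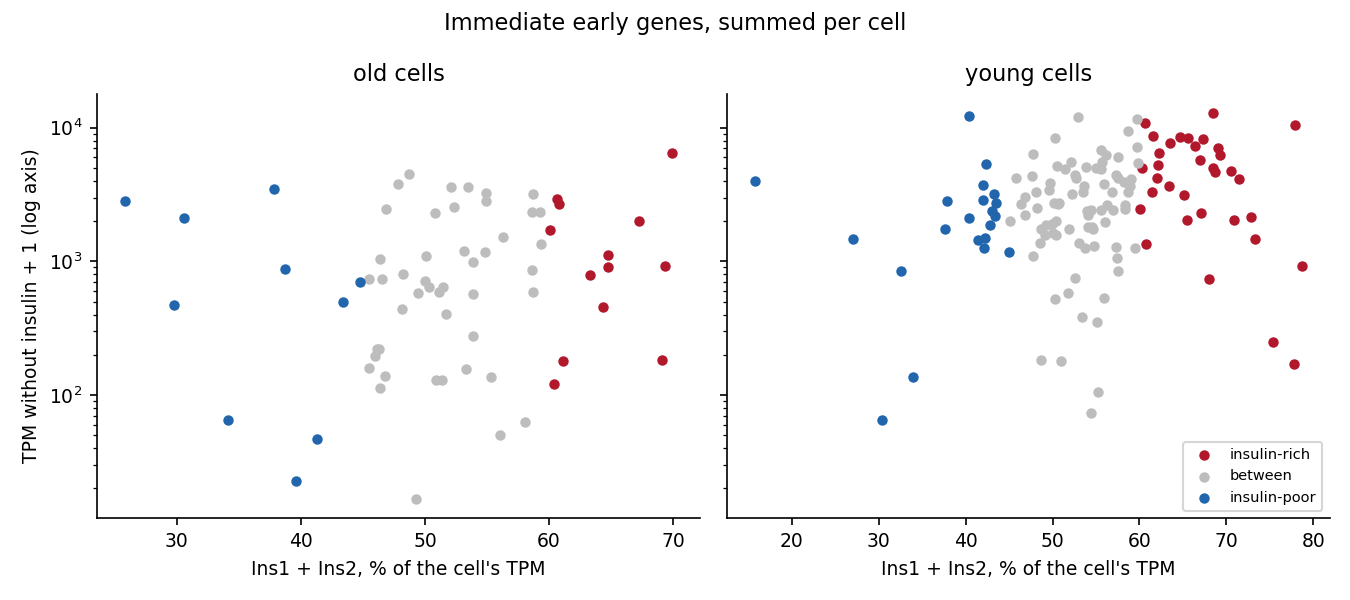
Summed TPM of the immediate early genes plus 1 after insulin was left out (log axis) against the insulin share in percent, in old cells (left) and young cells (right), with 1 point for each cell. Insulin-rich cells tend to lie higher, with cells of all classes spread over more than 10-fold.

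Fos, a partner of Jun in the factor AP-1, ran from 1.91 to 4503 TPM with a median of 523 TPM and a mean of 725 ± 1192 TPM in insulin-rich old cells, and from 0.863 to 915 TPM with a median of 43.3 TPM and a mean of 213 ± 325 TPM in insulin-poor old cells. In young cells it ran from 62.8 to 6797 TPM with a median of 1834 TPM and a mean of 1972 ± 1500.3 TPM in insulin-rich cells, and from 3.32 to 4409 TPM with a median of 600.2 TPM and a mean of 889.9 ± 1055 TPM in insulin-poor cells. The classes overlapped over most of their range. The log2 ratio was 1.76 in old and 1.15 in young cells, 0.93 within old cells 159 to 190, 1.65 within young cells 1 to 39 and 0.88 within young cells 87 to 138. Fosb, its close relative, was detected in 10 of 13 insulin-rich and 4 of 10 insulin-poor old cells, with means of 64.1 TPM in insulin-rich and 9.58 TPM in insulin-poor cells. It was detected in 28 of 34 insulin-rich and 17 of 21 insulin-poor young cells, with means of 274 TPM in insulin-rich and 77.5 TPM in insulin-poor cells. Its log2 ratios were 2.62 and 1.81, and 2.85, 1.72 and 1.88 within the runs. Their dimer partners were less uniform. Jun was at 2.32 and 1.82 but -1.87 within young cells 1 to 39, and Junb was at 3.84 and 0.64 but -1.15 there. Egr1, a zinc finger early gene, went against Fos in old cells. It had a mean of 74.9 ± 98.1 TPM in insulin-rich and 418 ± 645 TPM in insulin-poor old cells (-2.47), yet its median was 29.3 TPM in insulin-rich and 14.6 TPM in insulin-poor old cells, and 1 insulin-poor cell held 42.0% of its class total. In young cells Egr1 was at 0.77, and at -1.26 and 0.79 within the runs.

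The promoter of Fos (GRCm38.p6, chr12:85473640-85473889, plus strand, 250 bases before the RefSeq start) holds the TGACGT core, as do those of Chga and Hspa5 printed above, where in Hspa5 it is not in capitals. The core is in capitals here.
Fos: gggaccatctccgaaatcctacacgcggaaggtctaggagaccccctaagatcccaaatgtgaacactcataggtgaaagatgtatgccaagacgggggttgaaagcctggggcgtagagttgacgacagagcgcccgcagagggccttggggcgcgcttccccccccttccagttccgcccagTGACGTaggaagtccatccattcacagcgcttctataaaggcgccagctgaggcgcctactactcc
It was in 5 of 23 promoters of the early gene list (Atf3, Btg2, Dusp1, Fos and Nr4a3) and in 3 of 17 of the folding list (Canx, Dnajb11 and Hspa5).

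Trpm5 was among the genes named by the rule given further on, and so was chosen by its values. It encodes a calcium-activated cation channel that adds to the depolarisation of beta cells in glucose. Trpm5 ran from 0 to 372 TPM with a median of 57.1 TPM and a mean of 95.8 ± 119 TPM in insulin-rich old cells, and from 0 to 34.2 TPM with a median of 0.198 TPM and a mean of 6.50 ± 12.0 TPM in insulin-poor old cells. In young cells it ran from 0 to 1062 TPM with a median of 23.8 TPM and a mean of 109 ± 222 TPM in insulin-rich cells, and from 0 to 52.4 TPM with a median of 0.142 TPM and a mean of 4.90 ± 12.5 TPM in insulin-poor cells. It was detected in 9 of 13 insulin-rich and 4 of 10 insulin-poor old cells and in 24 of 34 insulin-rich and 8 of 21 insulin-poor young cells. The log2 ratios were 3.69 and 4.22, and 2.79, 7.34 and 2.38 within the runs. Trpm5 lies on chromosome 7, 143071529 to 143094642, on the chromosome of Ins2.

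Glucose sensing and coupling genes were higher more often than lower in insulin-rich young cells and evenly split in old cells. In old cells 6 of 17 were higher and 6 lower, with a median of -0.25 that was 0.12 as a difference of mean log2 and 0.35 without cells 139 to 158. In young cells 9 of 15 were higher and 2 lower (median 0.62, 0.64 as a difference of mean log2, 0.41 without the marker-carrying cells, and 0.56 and 0.77 within the runs, but -0.10 on the TPM as deposited). G6pc2, a glucose-6-phosphatase that opposes glucokinase, was at 1329 ± 1272 TPM in insulin-rich and 2581 ± 1339 TPM in insulin-poor old cells (-0.96) and at 2352 ± 2002 TPM in insulin-rich and 2058 ± 2002 TPM in insulin-poor young cells (0.19). Gjd2, the gap junction protein that couples beta cells, was at -1.79 in old and 1.46 in young cells, with the same signs within the runs (-2.21, 1.59 and 1.18). Abcc8, the sulfonylurea receptor subunit of the ATP-sensitive potassium channel, was at 0.65 and 0.91, but at -0.44 within old cells 159 to 190. The difference between the ages was not tested. Beta-cell transcription factors showed no common direction. In old cells 4 of 13 were higher (30.8%) and 2 lower (15.4%), with a median of -0.04 (background 37.3% and 39.9%). In young cells 5 of 14 were higher and 5 lower (35.7% each), with a median of -0.05 (background 32.4% and 35.9%). Within the runs the medians of these factors were 1.59, -1.34 and 0.31. Of them, Nkx2-2 was at 45.4 ± 38.5 TPM in insulin-rich and 8.89 ± 9.08 TPM in insulin-poor old cells (2.23) and at 45.6 ± 83.3 TPM in insulin-rich and 21.6 ± 23.0 TPM in insulin-poor young cells (1.05). Mafa was listed at 0 in all old cells of both classes.

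Hormones of other islet cells had higher means in insulin-rich cells at both ages. Sst, the delta-cell hormone somatostatin, was at 285 ± 373 TPM in insulin-rich and 89.6 ± 126 TPM in insulin-poor old cells (1.66), and at 251 ± 409.8 TPM in insulin-rich and 79.5 ± 92.7 TPM in insulin-poor young cells (1.65). Glucagon of alpha cells (Gcg) was at 1.30 and 0.42, Ppy, pancreatic polypeptide, at 1.03 and 0.65 (young cells -0.32 with cutoffs of 65% and 40% and -0.44 on the TPM as deposited), and Pyy, peptide YY, at 4.13 and 1.51. All 4 were above 0 within each of the 3 runs. With the marker-carrying cells left out, Pyy was at -0.067 in young cells 1 to 39. Sst was at 0.21 within young cells 1 to 39 and at 3.69 within young cells 87 to 138. Over all alternatives, young Gcg ranged from -0.47 to 1.45. For Pyy in old cells, 1 insulin-rich cell with 5889.9 TPM held 81.1% of the class total. These levels are far below those of insulin, and whether the transcripts were made in the cell or carried over from others was not tested.

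With all cells counted, proteasome, lysosome, antioxidant and integrated stress response genes had list medians below 0 at both ages. Their shares of lower members were then near the background or somewhat above it. Proteasome subunit genes had 4 of 30 higher and 14 lower in old (median -0.54) and 6 of 31 higher and 13 lower in young cells (-0.24), and within the runs the medians were -1.28, -0.52 and -0.79. Psma2, a subunit of the core particle, was at 102 ± 253 TPM in insulin-rich and 237 ± 265 TPM in insulin-poor old cells (-1.21) and at 231 ± 467 TPM in insulin-rich and 483 ± 754 TPM in insulin-poor young cells (-1.06). Genes of the vacuolar proton pump and lysosome had 4 of 30 higher and 12 lower in old (-0.36) and 4 of 30 higher and 13 lower in young cells (-0.42). The shares of lower members were 46.7% and 41.9% for the proteasome and 40.0% and 43.3% for the lysosome (background 39.9% and 35.9%). Without the marker-carrying cells, 18 of 30 proteasome genes were lower in old (60%, background 38.4%) and 12 of 31 in young cells (38.7%, background 34.7%). As differences of mean log2 the proteasome medians were -1.14 and -1.08, and the lysosome medians -0.82 and -0.63. Over all genes these medians were -0.06 and -0.27. Antioxidant and metallothionein genes had 7 of 22 higher and 10 lower in old (-0.51) and 6 of 23 higher and 9 lower in young cells (-0.36, and 0.06 without the marker-carrying cells). The marker-carrying cells bore on single lysosomal genes to different degrees. The lysosomal protease gene Ctsb was at -3.79 and -2.85, and at -2.05 and -0.32 without the marker-carrying cells. It reached 10657 TPM in the marker-carrying cells. Atp6ap2, an accessory subunit of the proton pump, moved little when they were left out (-0.75 and -0.71, then -0.78 and -0.87). The medians of the proton pump and lysosome list without the marker-carrying cells were -0.30 in old and -0.31 in young cells, against -0.36 and -0.42 with all cells counted.

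Glycolysis and citrate cycle genes were lower in insulin-rich old cells, 17 of 27 (63.0%) against 1 higher (3.7%), where the background was 39.9% lower and 37.3% higher. Their median was -0.93, but it was -0.22 within cells 159 to 190. In young cells 9 of 29 were higher (31.0%) and 10 lower (34.5%), with a median of 0.09. Both young shares were close to the background (32.4% and 35.9%). Eno1, the glycolytic enolase, was at 161 ± 277 TPM in insulin-rich and 798 ± 1038 TPM in insulin-poor old cells (-2.30) and at 105 ± 219.7 TPM in insulin-rich and 307 ± 380.0 TPM in insulin-poor young cells (-1.54), with 0.18 within young cells 87 to 138. Got2, the mitochondrial aspartate aminotransferase of the malate shuttle, was at -1.88 and -1.58. Pfkl, a phosphofructokinase gene named further on by its values, went the other way (4.21 and 3.36).

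Eef1a1 and Cox5a were lower in insulin-rich cells in each run with at least 5 cells of each class. Eef1a1, the elongation factor that brings aminoacyl-tRNA to the ribosome, ran from 1115 to 4352 TPM with a median of 2754 TPM and a mean of 2676 ± 1124 TPM in insulin-rich old cells, and from 1302 to 6680.3 TPM with a median of 3512 TPM and a mean of 3747 ± 1807 TPM in insulin-poor old cells. Among young cells, the range was 22.1 to 8036 TPM with a median of 1936 TPM and a mean of 2225 ± 1757 TPM in insulin-rich cells, and 1565 to 9273 TPM with a median of 3407 TPM and a mean of 3748 ± 1924 TPM in insulin-poor cells. The log2 ratios were -0.49 and -0.75, and -0.51, -0.66 and -0.47 within the runs. The list medians of the ribosomal protein genes were above 0 (0.42 and 0.13). Cox5a, a nuclear subunit of cytochrome c oxidase, was detected in 6 of 13 insulin-rich and 9 of 10 insulin-poor old cells, and in 13 of 34 insulin-rich and 16 of 21 insulin-poor young cells. Its log2 ratio was -2.86 in young cells. In old cells it was -0.28, where 1 insulin-rich cell with 1238 TPM held 97.6% of the class total, and within old cells 159 to 190 it was -5.97, while without those cells it was 0.71. The other nuclear respiratory chain genes did not share this. Of 70 members of the list, 23 were higher (32.9%) and 13 lower (18.6%) in old cells (median 0.15, background 37.3% and 39.9%). In young cells 15 were higher (21.4%) and 11 lower (15.7%), with a median of 0.05 (background 32.4% and 35.9%). Eef1a1 and Cox5a both have processed copies whose reads can be shared.

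**Figure D5:**
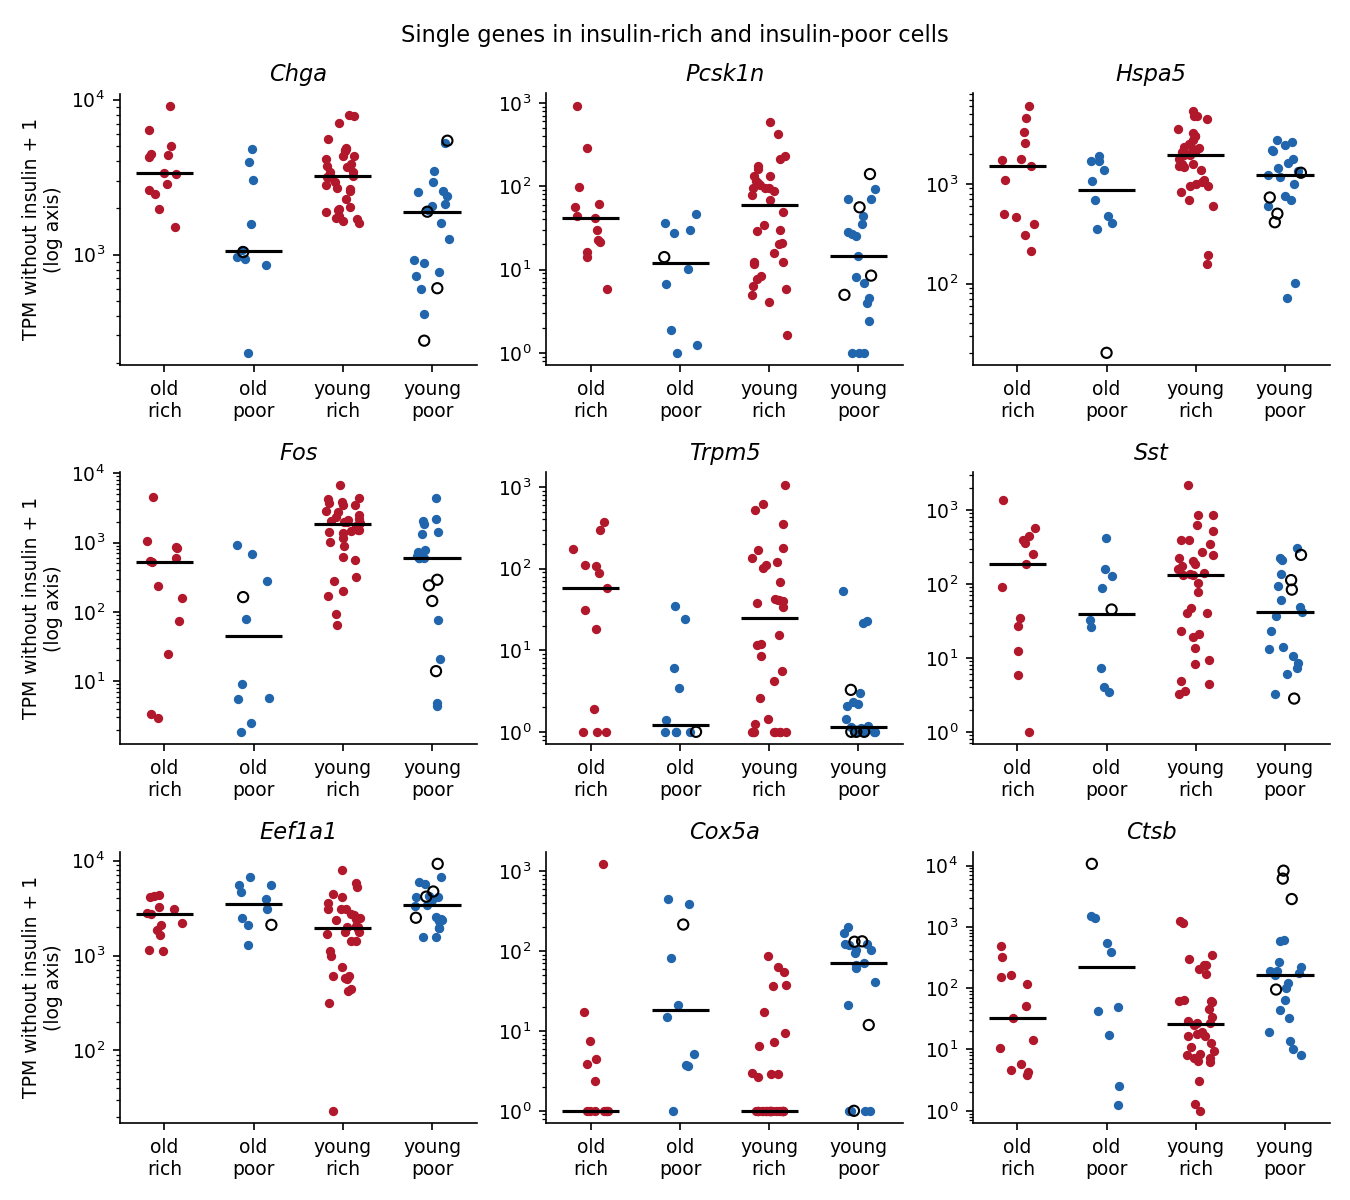
TPM plus 1 after insulin was left out (log axis) of 9 genes in each insulin-rich (red) and insulin-poor (blue) cell of both ages. Bars are medians and open circles are marker-carrying cells. Chga, Pcsk1n, Fos and Trpm5 have higher medians and Cox5a and Ctsb lower ones in insulin-rich cells at both ages, and the classes overlap in all 9 genes.

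Pcna, the sliding clamp of DNA replication and repair, was lower in insulin-rich cells at both ages. Of 13 markers of cycling cells, 2 were measured in old cells (1 higher, 1 lower) and 4 in young cells (all 4 lower), Pcna among them at both ages. The background of lower genes was 39.9% in old and 35.9% in young cells. Pcna was singled out after its values had been seen. It was detected in 3 of 13 insulin-rich and 6 of 10 insulin-poor old cells, with means of 2.88 ± 7.46 TPM in insulin-rich and 99.7 ± 164 TPM in insulin-poor cells. In young cells it was detected in 19 of 34 insulin-rich and 13 of 21 insulin-poor cells, with means of 70.7 ± 211 TPM in insulin-rich and 429 ± 692 TPM in insulin-poor cells, where 1 insulin-poor cell held 32.2% of its class total. The log2 ratios were -4.70 and -2.58, -4.15 and -2.66 without the marker-carrying cells, and -6.41, -3.59 and -7.72 within the runs. Mki67, a defining gene of dividing cells, was at 0 TPM in all insulin-poor cells of both ages, and Cdk1, the kinase of mitosis, was detected in 1 insulin-rich and 1 insulin-poor old cell.

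A rule that ranked 1555 genes by the smaller of the ratios at the 2 ages, for genes with 1 direction at both, named 12 genes at either end. Such genes are chosen by their values and carry no support of their own. The 12 highest were Tiparp, Slc17a9, Trpm5, Kat14, Mpnd, Pfkl, Cib3, Slc66a2, Nmd3, Ttc39a, Rgs9 and Unc45a. Apart from Trpm5, they rest on few cells. Tiparp, which encodes an ADP-ribosyltransferase induced by the aryl hydrocarbon receptor, was at 4.86 and 4.74 but was detected in 5 of 13 insulin-rich and 1 of 10 insulin-poor old cells and in 12 of 34 insulin-rich and 6 of 21 insulin-poor young cells, and it was -0.18 and -0.67 within 2 of the runs. Slc17a9, the vesicular nucleotide transporter that loads granules with ATP, was at 4.41 and 4.48, with 3.11, 7.48 and 1.89 within the runs, and was detected in 5 of 13 insulin-rich and 1 of 10 insulin-poor old cells. Pfkl, the liver-type phosphofructokinase, was at 4.21 and 3.36, with 5.38, 5.30 and 3.40 within the runs.

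The 12 lowest were Cd74, H2-Aa, Apoe, Vim, Bhlhe40, Msn, Ctsh, Arl6ip5, Tinf2, Smyd5, Polr2d and Ptrh2, and the first of these follow the marker-carrying cells. Cd74 was at -7.26 in old and -9.71 in young cells and at 0.78 and 0.09 without them. H2-Aa, an antigen-presenting class II chain, was at -6.74 and -9.42 and then at -1.93 and 1.34. Apoe, an apolipoprotein of macrophages, was at -6.07 and -6.71 and then at -1.51 and -3.76. With the rule applied without those cells, which was done after the data had been seen, 6 of the 12 highest and 4 of the 12 lowest genes stayed in their set (Kat14, Mpnd, Pfkl, Slc17a9, Tiparp and Trpm5, and Arl6ip5, Polr2d, Ptrh2 and Tinf2). Ptrh2, a mitochondrial peptidyl-tRNA hydrolase, was detected in 0 of 13 insulin-rich and 7 of 10 insulin-poor old cells and in 4 of 34 insulin-rich and 11 of 21 insulin-poor young cells. Tinf2, a telomere protein gene, was at 0 TPM in all insulin-rich old cells.

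Instead of the classes, the share itself was also set against each of 3021 genes over all cells that were not marker-carrying, a step added after the data had been seen. Over these genes the rank correlations lay mostly between -0.24 and 0.22 in old (n = 68) and between -0.24 and 0.16 in young cells (n = 133, 5th to 95th percentiles). Lars2, the mitochondrial leucyl-tRNA synthetase, was at the top with 0.54 in old and 0.45 in young cells. It ran from 81.0 to 1044 TPM with a median of 431 TPM and a mean of 445 ± 300.3 TPM in insulin-rich old cells, and from 27.3 to 222 TPM with a median of 66.3 TPM and a mean of 87.7 ± 64.1 TPM in insulin-poor old cells. Among young cells, Lars2 was at 49.4 to 1272 TPM with a median of 180.3 TPM and a mean of 263 ± 235 TPM in insulin-rich cells, and at 8.24 to 292 TPM with a median of 78.5 TPM and a mean of 101 ± 70.4 TPM in insulin-poor cells. Its log2 ratios were 2.33 and 1.37, and 2.06, 1.80 and 1.40 within the runs. Rn18s-rs5, a sequence related to 18S ribosomal RNA, had 0.31 and 0.54, and log2 ratios of 1.21 and 1.07. How reads of ribosomal RNA and its copies were assigned is not given in the sources used here, so this level is uncertain. Whether all reads counted for Lars2 came from its own transcript was not tested either. Fos, Fosb, Pcsk1n, Trpm5 and Chga had correlations of 0.21 to 0.38 at both ages. At the other end were Cct8, a subunit of the cytosolic chaperonin (-0.34 and -0.32), Skp1, an adaptor of ubiquitin ligases (-0.31 and -0.31), and Cbx3, a heterochromatin protein (-0.38 and -0.30). Skp1 had medians of 63.9 TPM in insulin-rich and 269.7 TPM in insulin-poor old cells and of 63.0 and 239 TPM in insulin-rich and insulin-poor young cells, with log2 ratios of -1.08 and -1.38 that were below 0 in all 3 runs. Correlations of this size in sparse values, over cells that share runs and a fixed total, describe an order among genes and no more.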

How the data were processed

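The labels call the libraries single beta cells caught on a Fluidigm C1 chip, with SMARTer cDNA and Nextera XT libraries. The authors deposited 1 table of TPM per gene and cell (44448 rows, 39725 with a symbol, 207 cells, 0 unused columns, 0 identical cells). CASAVA 1.8.2, FastQC and the build GRCm38 (mm10) are named per the submitters' processing notes. Which aligner, counter, annotation and strand setting the authors used is not given in the sources used here. Close copies of the insulin genes, ribosomal protein genes and pseudogene families can therefore share reads.

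Ins1 and Ins2 were dropped and each cell rescaled to 1000000. A gene was measured at a mean of 10 TPM or above in either class, with a pseudocount of 1. Python 3.11.15, numpy 2.4.6, pandas 2.3.3, scipy 1.17.1 and matplotlib 3.10.9 were used, and the scripts were tested on simulated data. Members, 22 gene lists and 13 marker lists were chosen with earlier results of these data known. Named genes were those with 1 sign at both ages by ratio and by mean log2, detected in at least 25% of the class with the higher mean, taken as the 12 highest and 12 lowest by the smaller ratio, and the insulin genes, Iapp and markers were added. All other genes named singly were chosen for their known role, after their values had been seen.

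Runs of cell numbers are least-squares segments of 4 measures, at least 8 cells long. Penalty multipliers of 1, 2 and 3 and 2 forms of the measures were tried, and multiplier 1 with log2 of sums was kept because it gave boundaries known from an earlier analysis. Multipliers of 2 and 3 with that form gave old cells 139 to 158 and 159 to 207, and young cells 1 to 54 and 55 to 138. No doublet caller was run. Alternatives changed the cutoffs, scaling, summary, pseudocount, filter, depth and runs. Promoter sequences are from RefSeq (GRCm38.p6).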

Additional observations from a re-analysis of the deposited data

How the results depend on the processing

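The counts at 1.5-fold without change of setting were 2722 higher and 2907 lower in old and 2553 higher and 2828 lower in young cells, and 10 and 14 of 22 list medians were above 0. Of the values of single genes under all alternatives, 30 of 1511 in old and 88 of 1727 in young cells had the opposite sign. Of these, 19 and 60 belonged to genes past 1.5-fold. Of list medians, 60 of 460 in old and 128 of 526 in young cells had the opposite sign, and 5 and 10 of these belonged to lists past 1.5-fold, so most signs that changed were of medians near 0. Sign changes of genes and lists past 1.5-fold, and counts that moved by over 1.5 times, follow as log2 ratios or counts, and the cause was not tested. Medians within runs are here over the genes measured within the run, so they differ a little from those over the whole classes. On the TPM as deposited, the old values were 905 for genes higher, 2 for list medians above 0, -0.28 for the granule docking and exocytosis median and -0.16 for Abcc8. On the TPM as deposited, the young values were 523 for genes higher, 0 for list medians above 0, -0.10 for the glucose sensing and coupling median, -0.19 for the immediate early genes median, -0.36 for the nuclear noncoding RNAs median, -0.027 for Chga, -0.15 for Resp18, -0.19 for Hspa5, -0.24 for P4hb, -0.047 for Manf, -0.0020 for Jund, -0.41 for Junb, -0.014 for Egr1, -0.44 for Ppy and -0.055 for Rn18s-rs5. Over all alternatives the young medians of granule content (-0.45 to 0.72), ER folding (-0.56 to 0.72) and ribosomal proteins (-0.94 to 0.45) also took both signs, as did young Iapp (-0.81 to 0.62), G6pc2 (-0.62 to 0.77) and Calr (-1.22 to 0.34) and old Ero1b (-0.73 to 0.38). Averaged within runs, the young values were 6 for list medians above 0, -0.22 for the nuclear noncoding RNAs median, -0.18 for Kat14, -0.12 for Jun and -0.24 for Egr1. As a difference of mean log2, the young values were 945 for genes higher and 8 for list medians above 0. With each gene's highest cell in each class left out, the old values were 1669 for genes higher and 1513 for genes lower. With each gene's highest cell in each class left out, the young values were 1669 for genes lower. With the marker-carrying cells left out as well, the old values were 1726 for genes higher and 1399 for genes lower. With the marker-carrying cells left out as well, the young values were 1453 for genes lower, 1.45 for the disallowed and immature genes median, 0.49 for Cd74, 0.70 for H2-Aa, 3.66 for Lyz2 and 1.85 for Tyrobp. Among genes with a mean of 1 TPM or above, the old values were 4820 for genes higher. Among genes with a mean of 1 TPM or above, the young values were 4408 for genes higher and 4692 for genes lower. Among genes with a mean of 100 TPM or above, the old values were 495 for genes higher, 562 for genes lower and -0.038 for the granule docking and exocytosis median. Among genes with a mean of 100 TPM or above, the young values were 364 for genes higher and 448 for genes lower. With cutoffs of 65% and 40%, the old values were -0.18 for the granule docking and exocytosis median, -0.92 for Nmd3, -1.09 for Ttc39a and -0.052 for Abcc8. With cutoffs of 65% and 40%, the young values were -0.32 for Ppy. Within cells 159 to 190, the old values were 0.13 for the integrated stress response median, -0.18 for Tiparp and -0.44 for Abcc8. Within cells 159 to 190, without the marker-carrying cells, the old values were 1.73 for the disallowed and immature genes median, -0.23 for Tiparp, 0.89 for Cd74, 1.09 for H2-Aa, 0.34 for Ctsh, -0.045 for Pam, -0.72 for Abcc8, 0.0078 for Got2 and 1.27 for Tyrobp. Without the marker-carrying cells, the old values were 0.78 for Cd74, 1.93 for Smyd5 and 0.62 for Tyrobp. Without the marker-carrying cells, the young values were 0.091 for Cd74, 1.34 for H2-Aa, 0.28 for Msn, 3.91 for Lyz2 and 2.02 for Tyrobp. Within cells 1 to 39, the young values were 8 for list medians above 0, -0.41 for the nuclear noncoding RNAs median, -0.67 for Tiparp, -0.47 for Kat14, -0.78 for Pcsk1n, -1.87 for Jun, -1.15 for Junb and -1.26 for Egr1. Within cells 1 to 39, without the marker-carrying cells, the young values were 9 for list medians above 0, -0.50 for the nuclear noncoding RNAs median, -0.52 for Tiparp, -0.60 for Kat14, 0.97 for H2-Aa, 0.17 for Vim, -0.68 for Pcsk1n, -0.056 for P4hb, -2.03 for Jun, -0.16 for Junb, -1.08 for Egr1, -0.067 for Pyy, 0.34 for Lyz2, 0.63 for Tyrobp and 0.96 for Ctsb. Within cells 87 to 138, the young values were -0.27 for the nuclear noncoding RNAs median, -2.02 for Cib3, -1.37 for Nmd3, -0.28 for Pam, -0.34 for Hspa5, -0.73 for Syt13, 0.18 for Eno1 and 0.32 for Cct8. Within cells 87 to 138, without the marker-carrying cells, the young values were -0.41 for the nuclear noncoding RNAs median, 1.05 for the disallowed and immature genes median, -2.17 for Cib3, -1.53 for Nmd3, 0.43 for Bhlhe40, 3.42 for Msn, -0.43 for Pam, -0.37 for Hspa5, -0.83 for Syt13, 0.79 for Eno1, 0.13 for Tyrobp and 0.72 for Cct8. With 1 run left out at a time, changes past 1.5-fold or of over 1.5 times were seen for Cd74 in old cells (-9.23 to 0.66), Smyd5 in old cells (-5.81 to 2.67), list medians above 0 in young cells (9 to 16) and Egr1 in young cells (-0.21 to 0.98), and among smaller values the sign also changed for, among others, beta-cell transcription factors (up to 0.43), glucose sensing (-0.42 to 0.35) and Cox5a (-5.04 to 0.71) in old cells and integrated stress response (-1.08 to 0.61), glycolysis (-0.28 to 0.31) and Lamp2 (-0.90 to 0.62) in young cells. The counts of higher genes were 2624 to 2894 in old and 2341 to 2921 in young cells. The medians of detected genes, insulin-rich minus insulin-poor, stayed within 1 SD between cells under all alternatives, at -451.5 to 660.5 in old and -749.5 to 9 in young cells. No paired analysis was possible because each age is 1 sample and no comparison rests on a test. Read depth is unknown in TPM, so values near 1 TPM and genes detected in few cells are the least certain. All values without the marker-carrying cells were added after the data had been seen.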

Other observations

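Keratins of simple epithelia differed between the classes in different ways. Krt8 averaged 214 ± 482 TPM in insulin-rich and 52.5 ± 107 TPM in insulin-poor old cells, and 353 ± 820.4 TPM in insulin-rich and 121 ± 185 TPM in insulin-poor young cells, with log2 ratios of 2.01 and 1.54 that were above 0 in each of the 3 runs (1.02, 0.27 and 1.05). Its filament partner Krt18 was at 1.79 in old cells but at -0.11 in young cells, where it averaged 178 ± 325 TPM in insulin-rich and 192 ± 233 TPM in insulin-poor cells. Both also mark duct cells. Of the 5 measured duct markers, 3 were higher and 0 lower in old cells (background 37.3% and 39.9%). In young cells 1 was higher and 1 lower (background 32.4% and 35.9%). The part of other cells in these values was not tested.

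Nuclear noncoding RNAs were higher in insulin-rich old cells, 7 of 10 against 2 lower (median 1.08, background 37.3% and 39.9%). In young cells 5 of 9 were higher and 1 lower (0.74, background 32.4% and 35.9%). Yet within both young runs the medians over these genes were below 0 (-0.31 and -0.27). The runs were cut in part on Malat1 and other such RNAs, so these values are not independent of the runs. Malat1 averaged 3209.6 ± 5018 TPM in insulin-rich and 1585 ± 2881 TPM in insulin-poor old cells, with medians of 382 TPM in insulin-rich and 339.7 TPM in insulin-poor cells. Ldha, a lactate dehydrogenase gene that mature beta cells hold low, was at -5.83 in old and -5.69 in young cells and at -0.12 and 0.23 without the marker-carrying cells. A single insulin-poor cell held 99.1% of its class total in old and 77.6% in young cells.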
